A study of Mus musculus with 19 samples.

Results

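Voltage-gated sodium and calcium channels open when a neuron is depolarised, sodium channels to start and carry the action potential and calcium channels to couple it to transmitter release, firing pattern and gene expression. Each channel has a large pore-forming subunit, encoded by an Scn alpha gene or a Cacna1 gene. Many also have auxiliary subunits that set how much channel reaches the membrane and how it opens. Sodium channel beta subunits are single-pass membrane proteins (Scn genes whose symbols end in b), calcium channel alpha2delta subunits are anchored outside the cell (Cacna2d genes), calcium channel beta subunits lie in the cytoplasm (Cacnb genes), and most gamma subunits (Cacng genes) are better known as partners of AMPA-type glutamate receptors. Brain is known to exchange many of these subunits between the embryo and the adult.

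The genes described are the protein-coding genes whose symbols name an Scn alpha or beta subunit or a Cacna1, Cacna2d, Cacnb or Cacng subunit. There were 40 of them among the 41388 genes with read counts, of which 21397 were protein-coding. The 38 described here are 9 sodium pores, 3 sodium beta subunits, 10 calcium pores, 4 alpha2delta subunits, 4 calcium beta subunits and 8 gamma subunits. Counts came from polyA RNA-seq of 16 samples of FVB mice, each Wiz+/+ or heterozygous for MommeD30, a chemically induced (ENU) mutation of Wiz. Whole brains of E13.5 embryos (13.5 days post coitum) gave 3 Wiz+/+ and 3 WizMommeD30/+ males and 2 Wiz+/+ and 2 WizMommeD30/+ females, and the cerebellum of adult males (56 days post partum) gave 3 samples of each genotype. Wiz encodes a zinc finger protein of the G9a/GLP histone methyltransferase complex, and the study asked how losing 1 functional copy alters expression in neural tissue. By the study's methods the mutation arose in Line3 mice, which are homozygous for a GFP transgene driven by an erythroid promoter, so the controls share that background. Litters were not given in the sources used here.

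Wiz itself, the targeted gene, was lower in every WizMommeD30/+ sample than in any Wiz+/+ sample of its tissue and sex, between 66.6 and 67.7 against 95.4 and 95.5 in cerebellum, as counts-per-million values (CPM). The fitted log2 difference was -0.50 in cerebellum, -0.63 in male and -0.57 in female E13.5 brain (adjusted p = 9.9e-08, 1.3e-05 and 0.014). Total counts ran from 16386029 to 50459755 per sample. Markers of granule and Purkinje cells (Gabra6, Cbln3, Fat2, Cbln1, Pcp2, Calb1, Car8) were present in every cerebellum. The genes listed as sensory ganglion markers (Isl1, Prdm12, Avil) summed to 71.3 to 102 CPM in the brains, against 0.519 to 1.21 CPM in the cerebellums. Most of each brain sum was Isl1, at 55.2 to 81.9 CPM, and whether these levels came from ganglion tissue was not tested. Skeletal muscle markers (Acta1, Ckm, Myh3, Myog, Mylpf) summed to 4.48 CPM or less in all samples.

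Together the 38 genes took 0.488% to 0.508% of the counts in the 6 cerebellums and 0.246% to 0.284% in the 10 E13.5 brains. Levels are given as CPM of a sample's total counts, and levels of different genes are compared only as RPKM, which is CPM divided by the kilobases of the gene's merged exons. In the E13.5 brains 29 of the 38 genes had a mean of at least 1 RPKM, and in the cerebellums 25 did. At the other end, Scn4a and Cacng6 had at most 5 counts in every cerebellum, as did Scn10a and Cacng1.

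**Figure D1:**
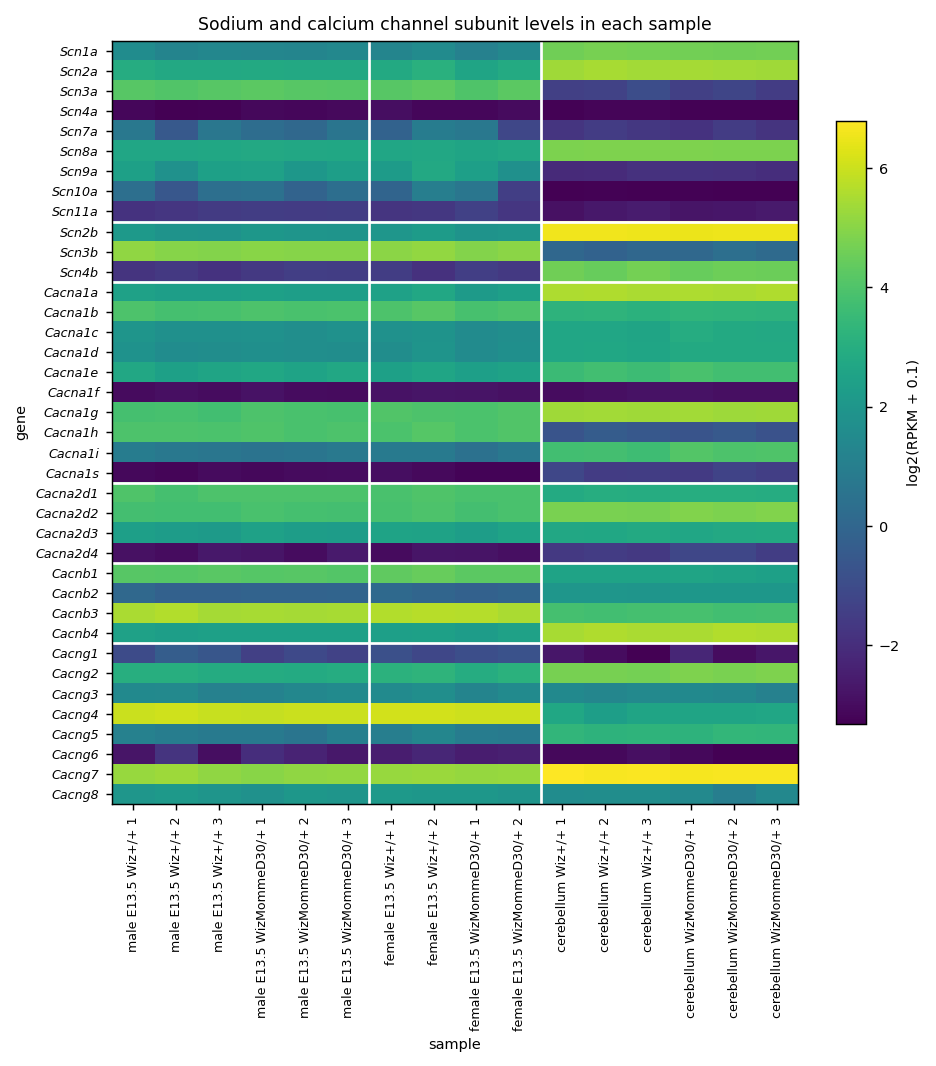
Level of each of the 38 genes (rows, grouped by subunit family) in each of the 16 samples (columns, named by tissue, genotype and replicate), as log2(RPKM + 0.1) in colour. The change of colour lies between the E13.5 brains and the cerebellums, and columns of the same tissue look alike apart from Scn7a, Scn9a and Scn10a.

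The largest contrast among these genes was between adult cerebellum and E13.5 brain. A gene was called when the adjusted p of edgeR's quasi-likelihood test was at most 0.05 and the fold change was below 0.7 or above 1.3, which are the study's limits. Of the 35 genes tested between the Wiz+/+ cerebellums and the Wiz+/+ male E13.5 brains, 32 were called, 20 higher in cerebellum and 12 lower. Over all 16840 genes tested, 69.3% were called, 36.4% higher and 32.9% lower, so a call alone did not set these genes apart. Under a limit of at least 4-fold, 12 were higher and 8 lower, 20 of 35, while 10.8% of all genes tested were at least 4-fold higher and 10.5% at least 4-fold lower. The median log2 fold change was 1.19 over the 35 and -0.02 over all genes tested. With library totals in place of TMM scaling these medians were 0.98 and -0.23, and 33 of the 35 were called. Age and tissue differ together in this comparison and cannot be told apart, and fewer cells of a type and less RNA per cell cannot be told apart in whole tissue.

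**Figure D2:**
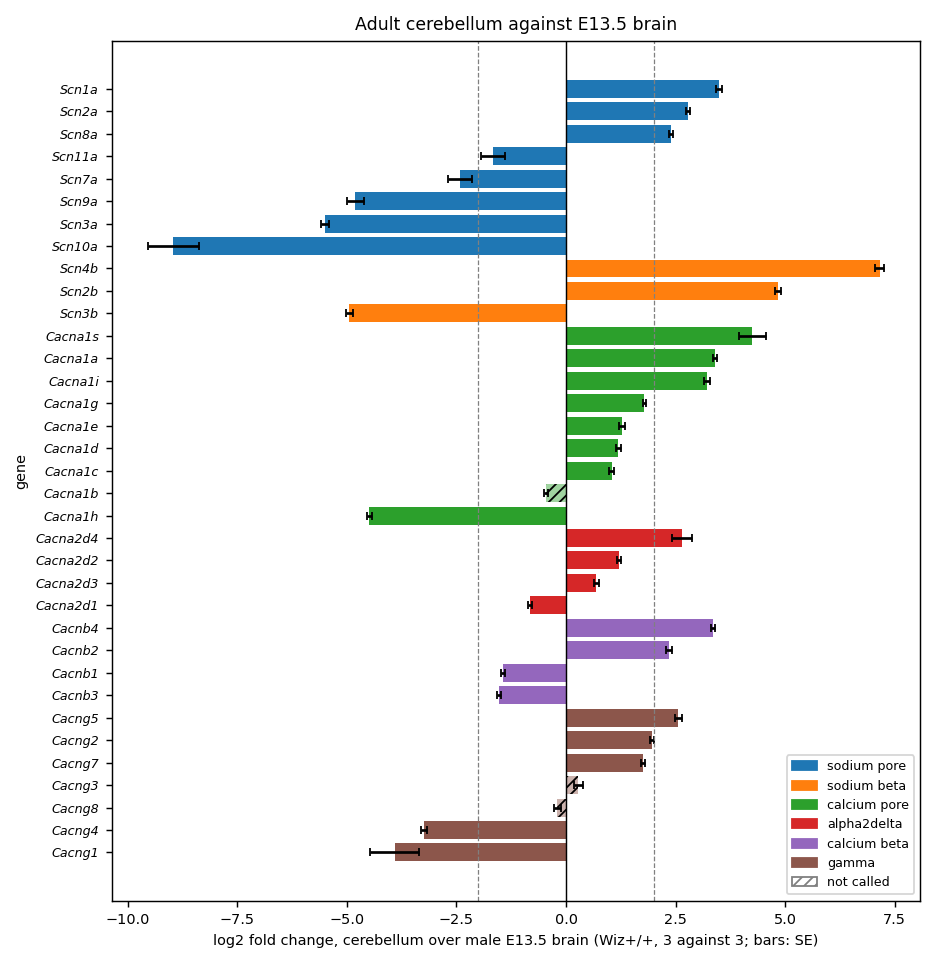
Log2 fold change of cerebellum over male E13.5 brain for the 35 genes tested (horizontal axis, 3 Wiz+/+ samples each), coloured by subunit family, with the standard error of the fit as black bars, hatched where not called and with dashed lines at 4-fold. Each family has genes on both sides of 0, from 7.15 for Scn4b down to the fitted value of Scn10a, which rests on 1 count in cerebellum.

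Among the sodium pores, Scn3a led in the embryo and Scn2a, Scn8a and Scn1a led in the adult. Scn3a, a channel known from the embryonic brain, was at 222, 207 and 221 CPM in the male Wiz+/+ brains and at 3.44, 3.68 and 5.32 CPM in the Wiz+/+ cerebellums. It fell by 5.49 on the log2 scale (SE 0.089, adjusted p = 6.8e-17). Scn2a, found along axons of excitatory neurons, was at 96.5, 86.5 and 86.5 CPM in the brains and 515, 558 and 536 CPM in the cerebellums, a log2 fold change of 2.78 (SE 0.053, adjusted p = 3.6e-16). Scn1a, the channel mutated in Dravet syndrome, rose from 25.4 to 32.7 CPM to 270.2 to 289.6 CPM, which was a log2 fold change of 3.48 (SE 0.070). Scn8a, the main channel of nodes of Ranvier and mature axon initial segments, rose from 97.5 to 100.2 CPM to 436 to 454 CPM. None of these ranges overlapped between the tissues, as held for 34 of the 35 genes and for 88.0% of all genes tested.

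Per kilobase, Scn3a stood at 17.4 ± 0.680 RPKM (SD, n = 3) in the male Wiz+/+ brains, above Scn2a at 7.06 ± 0.451 and Scn8a at 6.26 ± 0.0902. In the cerebellums Scn2a stood at 42.1 ± 1.70 RPKM, Scn8a at 28.4 ± 0.656 and Scn1a at 25.3 ± 0.934, with no overlap between neighbours in either order. Scn3a held 43.2% ± 1.93 of the summed RPKM of the 9 sodium pores described in the brains and 0.344% ± 0.0815 in the cerebellums. Scn2a, Scn8a and Scn1a held 43.6%, 29.4% and 26.2% in the cerebellums. That sum was 40.3 ± 3.30 RPKM in the brains and 96.6 ± 3.28 in the cerebellums.

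The other sodium pores described were lower in cerebellum or nearly undetected. Scn9a was at 67.9, 42.9 and 66.9 CPM in the male Wiz+/+ brains and at 1.70, 1.72 and 2.18 CPM in the cerebellums, a log2 fold change of -4.80 (SE 0.19, adjusted p = 2.5e-12). Scn7a and Scn11a were called lower as well, at -2.42 (SE 0.28) and -1.67 (SE 0.27) on the log2 scale. Scn10a, which marks nociceptors, had 886 counts over the 3 brains and 1 count over the 3 cerebellums, a ratio of 795 once scaled to total counts (95% interval 142 to 31446, counting error only). Scn4a, the skeletal muscle channel, had 6 counts over the brains and 5 over the cerebellums and was not tested.

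Scn9a and Scn10a, both known from peripheral sensory neurons, differed among the E13.5 brains. Scn10a was at 9.59, 4.58 and 9.51 CPM in the male Wiz+/+ brains and 10.1, 6.62 and 9.21 CPM in the male WizMommeD30/+ brains. In the females it was at 6.93 and 15.1 CPM in Wiz+/+ and 11.9 and 2.11 CPM in WizMommeD30/+. The genotypes overlapped, and the lowest values lay in female WizMommeD30/+ replicate 2 and male Wiz+/+ replicate 2. Of the summed sensory ganglion markers, the lowest level, 71.3 CPM, was in male Wiz+/+ replicate 2 and the next, 77.0 CPM, in male WizMommeD30/+ replicate 2. Female WizMommeD30/+ replicate 2 was at 82.0 CPM, and female Wiz+/+ replicate 2, highest for Scn10a, had the highest sum, 102 CPM. Isl1 made up most of each sum, 72.6 CPM in female WizMommeD30/+ replicate 2. For Prdm12 and Avil that sample was the lowest of the 10 brains, at 7.21 and 2.26 CPM, and female Wiz+/+ replicate 2 the highest, at 22.9 and 10.2 CPM. The part of ganglion tissue in these levels was not tested.

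Of the sodium beta subunits described, Scn4b and Scn2b were higher in cerebellum and Scn3b lower. Scn4b (chr9:45138395-45154152, plus strand, mm10), the subunit linked to resurgent sodium current in Purkinje cells, was at 0.951, 1.10 and 0.902 CPM in the male Wiz+/+ brains and at 120.2, 109 and 126 CPM in the Wiz+/+ cerebellums, a log2 fold change of 7.15 (SE 0.093, adjusted p = 8.0e-18). Scn2b (chr9:45117782-45130070, plus strand) was at 16.3 to 19.4 CPM against 429 to 444 CPM, a log2 fold change of 4.84 (SE 0.062).

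Scn3b went the other way, with 189.6, 168 and 167 CPM in the brains and 5.14, 4.46 and 5.12 CPM in the cerebellums, a log2 fold change of -4.94 (SE 0.077). No range of these 3 genes overlapped between the tissues, as held for 88.0% of all genes tested.

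**Figure D3:**
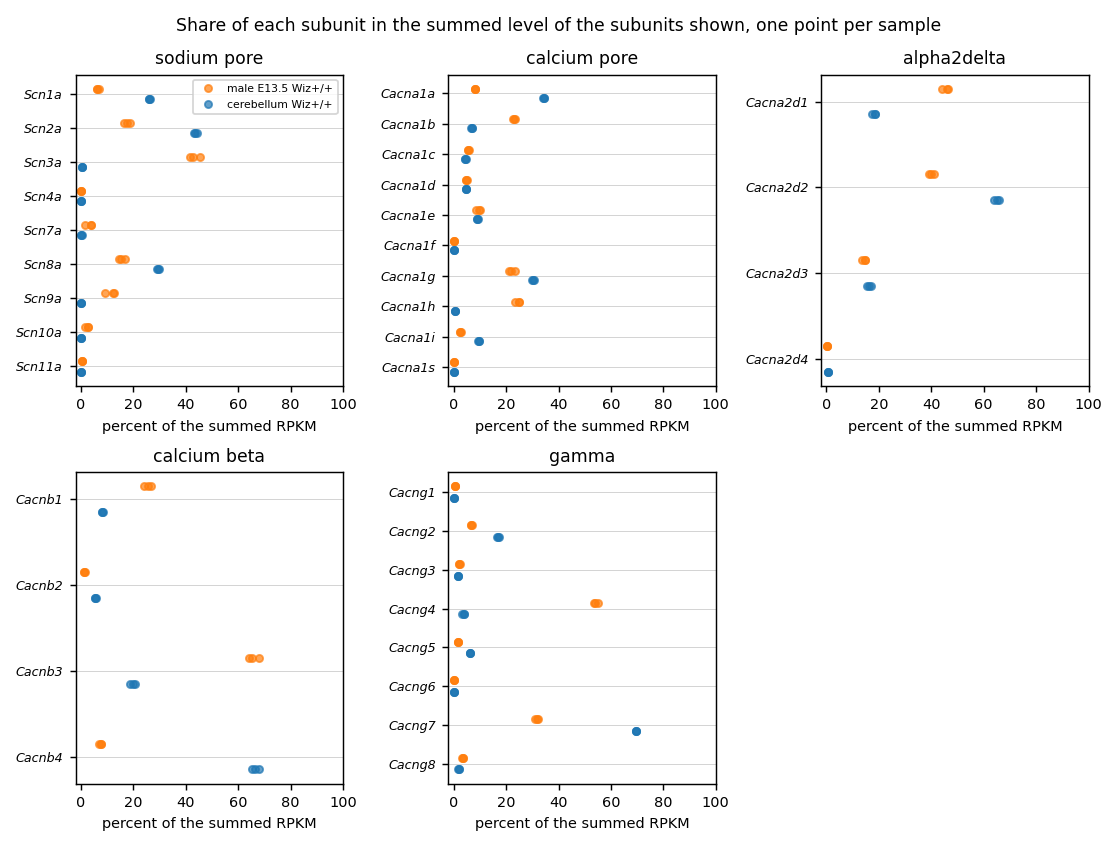
Percent of the summed RPKM of the genes in a panel held by each gene (horizontal axis), with 1 point for each of the 3 male E13.5 Wiz+/+ brains (orange) and the 3 Wiz+/+ cerebellums (blue). The leading gene differs between the tissues in each of the 5 panels, for example Cacnb3 at 65.8% in brain and Cacnb4 at 66.5% in cerebellum.

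Promoter sequences of RefSeq (GRCm38.p6) were available for 30 of the 38 genes, with 41 start sites. The 250 bases before the RefSeq start site are shown for Scn2b and Scn4b, neighbours on chromosome 9 that were both over 4-fold higher in cerebellum. They are also shown for Scn10a, which was lower, and for Cacna1i, which has the lowest p of the genotype comparisons. GENCODE, the source of the gene positions given here, places the starts of Scn2b, Scn4b and Scn10a further upstream, at 45117782, 45138395 and 119719322. By those positions the window lies partly inside the gene for Scn2b, mostly for Scn4b and wholly for Scn10a. The window of Cacna1i ends just before its GENCODE start. Capitals mark the CpG dinucleotides, read 5′ to 3′ on the gene's strand.
Scn2b, chr9:45117626-45117875, plus strand: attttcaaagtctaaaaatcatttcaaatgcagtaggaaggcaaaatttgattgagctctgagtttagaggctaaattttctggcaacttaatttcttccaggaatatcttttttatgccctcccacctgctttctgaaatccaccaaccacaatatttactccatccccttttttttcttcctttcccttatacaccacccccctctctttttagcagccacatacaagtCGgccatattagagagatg
Scn4b, chr9:45138374-45138623, plus strand: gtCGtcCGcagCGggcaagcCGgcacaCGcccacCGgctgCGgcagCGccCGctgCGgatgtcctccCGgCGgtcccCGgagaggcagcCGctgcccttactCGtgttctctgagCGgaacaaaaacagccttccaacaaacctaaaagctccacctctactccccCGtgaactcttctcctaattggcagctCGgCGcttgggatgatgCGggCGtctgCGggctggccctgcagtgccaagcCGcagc
Scn10a, chr9:119719033-119719282, minus strand: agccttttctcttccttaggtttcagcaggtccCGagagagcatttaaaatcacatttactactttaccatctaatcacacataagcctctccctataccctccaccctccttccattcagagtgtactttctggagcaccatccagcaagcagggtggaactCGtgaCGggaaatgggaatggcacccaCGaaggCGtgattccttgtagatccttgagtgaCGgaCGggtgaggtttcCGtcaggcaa
Cacna1i, chr15:80286988-80287237, plus strand: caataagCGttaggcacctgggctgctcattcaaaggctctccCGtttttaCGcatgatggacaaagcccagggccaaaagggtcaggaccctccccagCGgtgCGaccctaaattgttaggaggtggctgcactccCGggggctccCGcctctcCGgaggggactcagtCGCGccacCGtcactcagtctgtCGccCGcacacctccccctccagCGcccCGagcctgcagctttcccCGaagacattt

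Scn4b had 23 CpG and Scn2b 1 CpG in this window, so these neighbours, which rose together, differed in base composition. Scn10a had 8 CpG and Cacna1i 16 CpG, and the median was 6 over all 32851 promoters in the table and 8 over the 41 of these genes. The letters GGGCGG, on either strand, were in none of the 4 sequences shown, in 36.6% of the promoters of these genes and in 32.7% of all promoters. TATAAA was in 4.88% against 12.4%. The cyclic AMP response element TGACGTCA was in none of the 41, against 1.55% of all promoters.

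Among the calcium pores, Cacna1h, Cacna1b and Cacna1g led in the embryo and Cacna1a and Cacna1g in the adult. Cacna1a, the P/Q-type channel of Purkinje cells and of most fast synapses, was at 61.8, 56.9 and 57.6 CPM in the male Wiz+/+ brains and at 532, 543 and 527 CPM in the Wiz+/+ cerebellums, a log2 fold change of 3.39 (SE 0.046, adjusted p = 1.1e-17). The T-type channels, which open near the resting potential, divided. Cacna1h was at 152, 151 and 149 CPM in the brains and 5.10, 6.52 and 5.77 CPM in the cerebellums, a log2 fold change of -4.49 (SE 0.063). Cacna1i was at 17.5, 15.6 and 14.4 CPM in the brains and 131, 133 and 123 CPM in the cerebellums, a log2 fold change of 3.22 (SE 0.064). Cacna1g, the third T-type gene, went from 136 to 146 CPM to 413 to 422 CPM.

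Cacna1s, the skeletal muscle L-type pore, had a log2 fold change of 4.25 (SE 0.30) from 11 counts over the brains to 168 over the cerebellums, and reached only 0.282 ± 0.0503 RPKM there. The L-type genes Cacna1c and Cacna1d and the R-type gene Cacna1e were called higher in cerebellum, between 1.04 and 1.27 on the log2 scale. The N-type gene Cacna1b was at 154, 139.7 and 142 CPM in the brains and 91.8, 94.0 and 87.7 CPM in the cerebellums. Its fitted log2 difference was -0.46 (adjusted p = 2.9e-07), or 0.725-fold with TMM scaling, which missed the fold limit. With library totals in place of TMM scaling, or with all 5 Wiz+/+ E13.5 brains, Cacna1b was called lower in cerebellum. Cacna1f, a channel of photoreceptors, was between 0.205 and 0.432 CPM in the 16 samples and was not tested between the tissues.

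In the male Wiz+/+ brains Cacna1h at 15.4 ± 0.140 RPKM, Cacna1b at 14.6 ± 0.806 and Cacna1g at 13.9 ± 0.532 had neighbouring ranges that overlapped, while Cacna1e came next at 5.93 ± 0.673. In the cerebellums Cacna1a at 46.8 ± 0.719 RPKM lay above Cacna1g at 41.2 ± 0.440 without overlap, and Cacna1i at 13.1 ± 0.503 overlapped Cacna1e at 12.4 ± 0.597. Cacna1a held 34.4% ± 0.128 of the family's summed RPKM in the cerebellums and 8.14% ± 0.0966 in the brains. With the longest transcript as gene length these shares were 37.5% and 9.42%.

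Of the alpha2delta genes, 1 was lower and 3 were higher in cerebellum. Cacna2d1, a binding site of gabapentin, was at 198, 174 and 193 CPM in the brains and 88.7, 96.1 and 93.2 CPM in the cerebellums, a log2 fold change of -0.82 (SE 0.052). Cacna2d2, the other gabapentin-binding subunit, was at 108, 104 and 106 CPM against 215, 215 and 207 CPM, a log2 fold change of 1.21 (SE 0.039). Cacna2d3 was called higher in cerebellum, at 39.2 to 44.5 CPM against 56.0 to 60.8 CPM. Cacna2d4, known from the retina, had a log2 fold change of 2.65 (SE 0.23) but stayed at 0.229 ± 0.0150 RPKM in the cerebellums.

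The leading cytoplasmic beta subunit differed between the tissues. Cacnb3 was at 184, 198 and 174 CPM in the brains and 56.7, 53.2 and 55.9 CPM in the cerebellums, a log2 fold change of -1.53 (SE 0.047). Cacnb4, mutated in the ataxic lethargic mouse, was at 49.0, 44.4 and 47.3 CPM against 402, 433 and 413 CPM, a log2 fold change of 3.35 (SE 0.050, adjusted p = 2.6e-17). Cacnb2 was called higher in cerebellum at 2.36 (SE 0.071) and Cacnb1 lower. Cacnb3 held 65.8% ± 1.97 of the family's summed RPKM in the brains and Cacnb4 66.5% ± 1.24 in the cerebellums. The sum itself was 70.2 ± 2.53 RPKM in the brains and 69.8 ± 1.32 in the cerebellums. These sums rest on total counts, whereas the fold changes rest on TMM scaling, which places cerebellum higher relative to brain.

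Of the gamma subunits, Cacng4 led in the embryo and Cacng7 in the adult. Cacng4 was at 227, 236 and 219.8 CPM in the brains and 23.1, 17.8 and 21.3 CPM in the cerebellums, a log2 fold change of -3.24 (SE 0.066). Cacng7 was at 91.3, 97.1 and 84.4 CPM against 271, 256 and 259 CPM, a log2 fold change of 1.75 (SE 0.047). Cacng2 (stargazin) and Cacng5 were called higher too, Cacng5 by 2.56 (SE 0.081) from 6.31 to 8.03 CPM to 35.1 to 38.6 CPM. Cacng3 and Cacng8 differed by 0.28 and -0.20 on the log2 scale and missed the fold limit. Cacng1 and Cacng6, muscle-type gamma subunits, were near the limit of detection, with Cacng1 at 63 counts over the brains and 3 over the cerebellums, a ratio of 18.8 (95% interval 6.16 to 93.8).

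Genes that work with these channels were described as lists. Of the sodium leak channel complex, Nalcn, Unc80 and Fam155a were called higher in cerebellum and Unc79 was not called. Of 8 axon initial segment and FGF homologous factor genes, 5 were higher and 1, Fgf13, was lower. All of the inositol trisphosphate receptor genes and Ryr1 and Ryr2 were called higher, 5 of 6, with Itpr1, the Purkinje cell calcium release channel, at 7.02 (SE 0.059). Of 14 calcium channel partners 9 were higher and 4 lower, and of 8 AMPA receptor and related auxiliary genes 5 were higher and 2 lower. Beside these, 3 of 4 neuron markers were higher in cerebellum and Tubb3 was lower, and all 4 markers each of granule cells and oligodendrocytes and all 3 of Purkinje cells were higher. All 4 astrocyte markers and 3 of 4 microglia markers were higher too. All 4 endothelium and all 3 sensory ganglion markers were lower, as were 3 of 4 progenitor markers and 3 of 4 erythroid markers. Of the 3 retina and 3 skeletal muscle markers tested, 2 each were lower.

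Between genotypes, none of the genes tested was called in any tissue or sex. Scn4a and Cacng6 were too low to be tested in any of these fits. Cacna1s was tested only in cerebellum and Cacna1f only in the fits that held females, and Scn10a and Cacng1 were not tested in cerebellum. In the male E13.5 brains 0 of 34 genes tested were called, against 0.184% of all genes tested, and 3 had p under 0.05 before adjustment, against 8.45% of all genes. In the females 0 of 35 were called, against 0.111%, and 3 had p under 0.05, against 6.40%. With both sexes in a model that holds sex, 0 of 35 were called, against 0.352%. Before adjustment, 7 were lower in WizMommeD30/+ with p under 0.05, against 6.63% of all genes, and 1 (Scn11a, at 0.28) was higher, against 5.33%. The lowest p there belonged to Cacna1c, Cacna1i, Cacng2, Cacng7 and Cacnb1, with log2 differences of -0.14, -0.20, -0.12, -0.10 and -0.08. DESeq2's Wald test also called none of them in these comparisons. The lowest adjusted p was 0.525 in males, 0.773 in females and 0.293 with both sexes. None of the genes in the partner lists was called in a genotype comparison either.

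**Figure D4:**
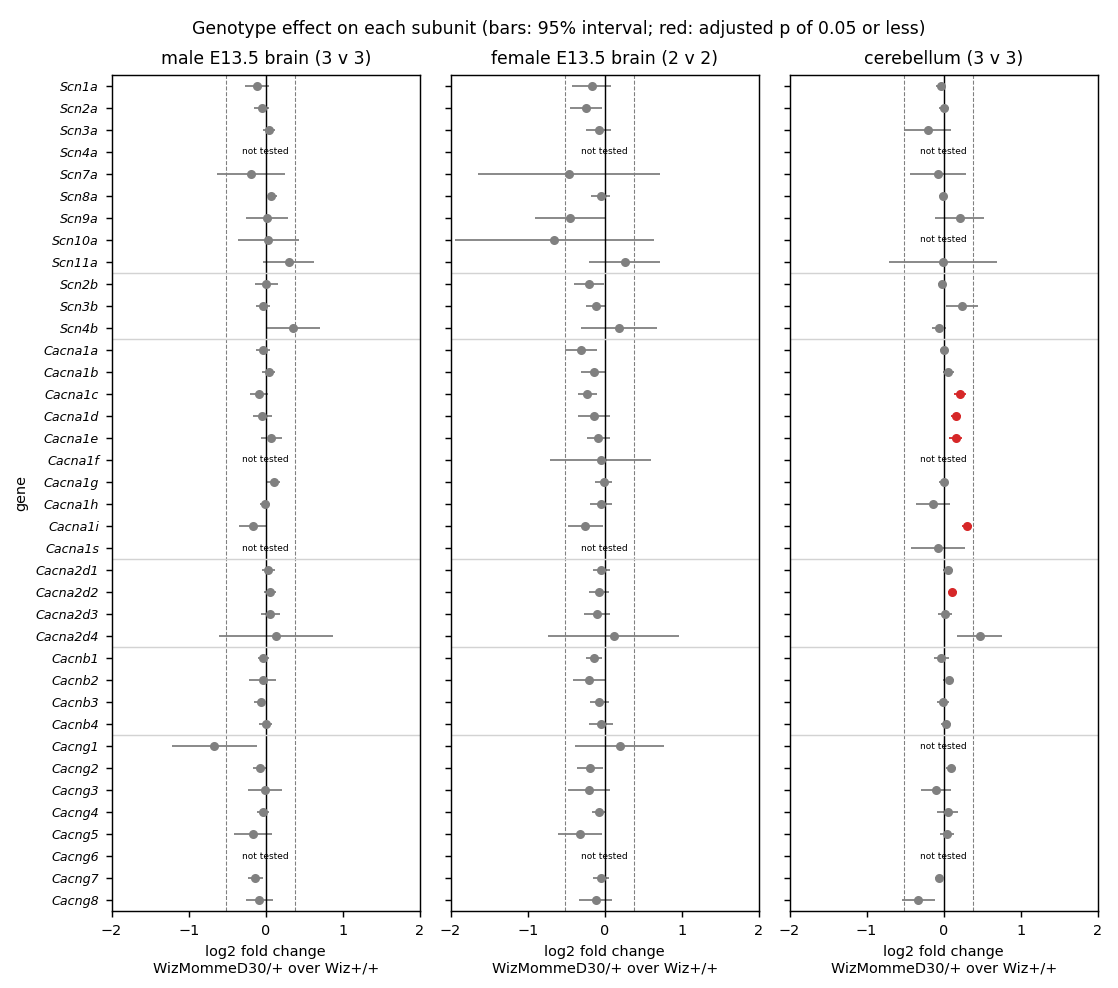
Log2 fold change of WizMommeD30/+ over Wiz+/+ for each gene (points) in male E13.5 brain, female E13.5 brain and cerebellum. Lines are approximate 95% intervals from a normal quantile of the standard error, narrower than the quasi-likelihood test would give. Points are red where the adjusted p was at most 0.05, and dashed lines mark the fold limits of 0.7 and 1.3. The 5 red points lie in cerebellum and inside the dashed lines, and 31 of the 35 female points lie below 0.

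The 5 male genes with the lowest p were Cacng7, Cacng1, Cacna1g, Scn8a and Scn4b. Cacng7 was at 91.3, 97.1 and 84.4 CPM in Wiz+/+ and 78.7, 84.1 and 85.8 CPM in WizMommeD30/+, a log2 difference of -0.13 (SE 0.052, adjusted p = 0.53). The groups overlapped. Cacng1, at under 1 CPM and without overlap between genotypes, had a log2 difference of -0.67 (SE 0.28, adjusted p = 0.56). Scn8a, at 98.4, 97.5 and 100.2 CPM against 107, 105 and 101 CPM, did not overlap either, with a log2 difference of 0.07 (SE 0.035, adjusted p = 0.62). Cacna1g and Scn4b, whose groups overlapped, had positive differences of 0.10 and 0.35 (adjusted p = 0.57 and 0.64). In males, 3 of the 34 genes did not overlap between genotypes, against 12.3% of all genes tested.

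In the females, 31 of 35 genes had a lower fitted level in WizMommeD30/+, with a median log2 fold change of -0.11, against 0.00015 over all genes tested. Without Wiz+/+ replicate 2 the numbers were 25 of 35 and a median of -0.03. Cacna1c, the main brain L-type pore, was at 72.0 and 75.0 CPM in Wiz+/+ and 60.6 and 65.4 CPM in WizMommeD30/+, a log2 difference of -0.22 (SE 0.062, adjusted p = 0.77). Cacna1a was at 61.7 and 74.7 CPM against 51.1 and 59.4 CPM, a log2 difference of -0.31 (SE 0.11), which was -0.16 without Wiz+/+ replicate 2 and -0.44 (adjusted p = 0.025) without Wiz+/+ replicate 1. Neither gene overlapped between genotypes, as held for 11 of the 35 genes and for 36.5% of all genes tested. Without Wiz+/+ replicate 1, Scn9a, whose groups overlapped with both replicates, was called, but 261 of 17588 genes tested were called then, against 19 of 17152 with every sample. That fit leaves 1 Wiz+/+ female, so its spread came from the 2 WizMommeD30/+ females and the lone sample is assumed to vary like them. Scn2a, Cacnb1 and Cacng2 completed the 5 with the lowest p, at -0.24, -0.14 and -0.19. With any 1 female left out, Scn2a ran from -0.38 to -0.10, Cacnb1 from -0.19 to -0.09 and Cacng2 from -0.32 to -0.08.

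Exons of Scn9a, Cacna1a, Cacna1h, Cacna1s, Cacna2d2, Cacnb1, Cacnb2, Cacnb4 and Cacng2 overlap those of a gene on the opposite strand, and those of Cacng8 a gene on the same strand, so reads of the pair may be mixed in their values.

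Cell type markers moved beside these female values. The summed neuron markers (Rbfox3, Snap25, Syt1, Tubb3) were 2040.5 to 2159.8 CPM in Wiz+/+ and 1986.6 to 1990.2 CPM in WizMommeD30/+, with a median log2 difference of -0.14. The summed neural progenitor markers (Sox2, Pax6, Nes, Vim) were 1227.8 to 1380.2 CPM against 1433 to 1528 CPM, with a median of 0.25, and none of these 8 genes was called. The medians of the other marker lists were below 0 as well, from -0.02 for granule cell to -0.51 for retina markers. Astrocyte markers were at -0.18 and microglia markers at -0.14. The part of any cell type in the lower channel values was not tested. A test of whether the genotype effect differed between the sexes called 0 of 36 genes, with 0% of all genes tested called, and Cacna1a and Cacng1 had p under 0.05 before adjustment, against 3.98% of all genes. Their effects differed by -0.27 and 0.87 on the log2 scale, females over males, and Cacna1b, Cacnb1 and Scn8a came next, at -0.18, -0.11 and -0.12. With any 1 sample left out, Cacna1a ran from -0.40 to -0.13, Cacng1 from 0.69 to 1.12, Cacna1b from -0.28 to -0.07, Cacnb1 from -0.15 to -0.05 and Scn8a from -0.20 to -0.05.

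The cerebellum had the smallest errors and the clearest genotype differences, all of them small. None of 33 genes tested was called under the fold limits, against 0.832% of all genes tested. The targeted gene Wiz, at -0.50 on the log2 scale, also missed the fold limit here, so the rule leaves out changes of that size. By the adjusted p alone 5 of 33 passed, against 5.25% of all genes, and 9 had p under 0.05 before adjustment, against 19.9%. The 4 calcium pores Cacna1i, Cacna1c, Cacna1d and Cacna1e and the alpha2delta gene Cacna2d2 were higher in WizMommeD30/+.

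Cacna1i was at 131, 133 and 123 CPM in the Wiz+/+ cerebellums and 165, 154 and 158 CPM in the WizMommeD30/+ cerebellums. Every heterozygous sample lay above every wildtype sample, and the fitted difference was 0.30 on the log2 scale (SE 0.035, adjusted p = 0.00013), or 1.23-fold. Leaving out any 1 cerebellum kept it between 0.27 and 0.33, with an adjusted p of at most 0.0018. Cacna1c was at 134, 133 and 126 CPM against 161, 149 and 144 CPM, a log2 difference of 0.21 (SE 0.038, adjusted p = 0.0050). Cacna1d was at 78.5, 81.0 and 77.0 CPM against 87.0, 88.4 and 87.6 CPM, a log2 difference of 0.16 (SE 0.033, adjusted p = 0.012). Its exons overlap those of Chdh on the opposite strand, and how the counting used strand was not stated.

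Cacna1e was at 301, 329.6 and 306 CPM against 374, 336 and 331 CPM, a log2 difference of 0.15 (SE 0.042, adjusted p = 0.043). Cacna2d2 was at 215, 215 and 207 CPM against 234, 221 and 230.5 CPM, a log2 difference of 0.11 (SE 0.030, adjusted p = 0.043). None of the 5 overlapped between genotypes, as held for 11 of the 33 genes and for 24.3% of all genes tested. Only Cacna1i of the 5 passed the adjusted p with Wiz+/+ replicate 3 left out, and 3 did without Wiz+/+ replicate 1 or without WizMommeD30/+ replicate 1, in each case Cacna1i, Cacna1c and Cacna1d. Without WizMommeD30/+ replicate 3 Cacna2d2 no longer passed and Cacna2d4 did, and DESeq2's Wald test passed all but Cacna1e.

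The leading pores of the adult had narrow intervals around 0. The approximate 95% interval of the log2 difference between genotypes was -0.10 to 0.02 for Scn1a, -0.06 to 0.07 for Scn2a, -0.07 to 0.04 for Scn8a and -0.05 to 0.06 for Cacna1a. These intervals rest on a normal quantile of the standard error, so they are narrower than the quasi-likelihood test would give. Cacna2d4, at 2.13, 2.33 and 2.05 CPM against 3.28, 3.29 and 2.43 CPM, had a log2 difference of 0.46 (SE 0.15) with an adjusted p of 0.086. Without WizMommeD30/+ replicate 3, or with no filter on low counts, it passed both limits. Cacng8, at 6.84, 7.02 and 7.01 CPM against 6.17, 4.48 and 5.90 CPM, went the other way without overlap, with a log2 difference of -0.33 (SE 0.11) and an adjusted p of 0.087, and it passed the adjusted p with no filter on low counts. The erythroid markers Hba-a1 and Alas2 were called higher in the WizMommeD30/+ cerebellums, where the summed erythroid markers were 139 to 256 CPM against 78.1 to 123 CPM. The part of blood in these values was not tested.

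A direct test of whether the genotype effect differed between cerebellum and male E13.5 brain called 1 of 36 genes, against 0.260% of all genes tested. That gene was Cacna1i, higher by 0.30 in WizMommeD30/+ cerebellum and lower by 0.17 in WizMommeD30/+ male brain (13.1, 13.9 and 15.7 CPM against 17.5, 15.6 and 14.4 CPM, adjusted p = 0.65 on its own). The effects differed by 0.48 on the log2 scale (SE 0.093, adjusted p = 0.036). The call was lost, with adjusted p from 0.052 to 0.19, when any of 7 of the 12 samples was left out: Wiz+/+ cerebellum replicates 2 and 3, WizMommeD30/+ cerebellum replicates 1 and 3, male Wiz+/+ brain replicate 1 and male WizMommeD30/+ brain replicates 1 and 2. After Cacna1i the lowest p belonged to Cacna1c, Cacng2, Cacna1d and Scn3b, at 0.30, 0.17, 0.20 and 0.27, with adjusted p of 0.17 to 0.51. For Cacna1i the difference was 0.36 without male Wiz+/+ brain replicate 1 and between 0.42 and 0.56 without any other sample.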

How the data were processed

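RNA-seq of 16 samples was analysed, and the 3 ChIP-seq and input samples were not analysed here. The deposited values are raw counts per Ensembl gene. By the study's methods and the submitters' processing notes, the authors aligned 100 bp single-end reads of TruSeq polyA libraries to mm10 with TopHat2 2.0.11 and counted them with HTSeq 0.6.1. Strand and counting mode are not given in the sources used here, and counts per gene do not separate splice forms. Groups came from the sample labels.

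Of 41388 gene IDs, 40254 were found in GENCODE M21 (GRCm38), which gave symbols, positions and merged exon lengths. The other 1134 held at most 0.171% of a sample's counts. Tests used edgeR 4.0.16 (quasi-likelihood, TMM normalization, filterByExpr with a minimum count of 10, R 4.3.3) with Benjamini-Hochberg adjustment over all genes tested. CPM used total counts. DESeq2 1.42.0 was an alternative. Fits were tested on simulated counts. Standard errors were taken from the log2 fold change and F. The 95% intervals of log2 differences used these errors with a normal quantile, so they are approximate and narrower than the test would give. For Scn8a in male E13.5 brain the interval was 0.005 to 0.143, positive at both ends, while the quasi-likelihood p before adjustment was 0.059. Genotype comparisons gave in full every called gene, the 5 with the lowest p and, in cerebellum, those past the adjusted p alone. The tissue comparison gave, per family, the 3 largest called changes and the leading genes by RPKM. Other genes were given by range or count. Same-numbered samples of the 2 genotypes did not deviate together (correlations of -0.160 to -0.0221), so they were not paired. Replicates are separate libraries, and nothing in the labels names litters or days, so p-values measure the spread between these samples. Genes and lists were chosen with earlier results of these data known. Some genes of the rule and the lists stayed in every fit but, with the results that need them, are not reported here. In the report, intervals of single ratios cover counting error only.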

Additional observations from a re-analysis of the deposited data

Results flagged for a closer look

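Cacna1i was marked because its genotype effect differed between cerebellum and male E13.5 brain by the test of the difference itself, with a log2 difference of 0.48 (edgeR quasi-likelihood test, adjusted p = 0.036). The call was lost in 7 of the 12 fits that left out 1 sample, with adjusted p from 0.052 to 0.19, and with the replicate number as a block (adjusted p = 0.17). All 3 WizMommeD30/+ cerebellums lay above all 3 Wiz+/+ cerebellums, while the male brains of the genotypes overlapped. Over all genes tested, 24.3% did not overlap between genotypes in cerebellum. No group held enough samples for a test of single outlying samples.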

How the results depend on the processing

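Of 136 counts of called genes recomputed under the alternatives, 119 were equal to the reported count or within 1.5 times of it and 17 were not. The 119 include counts of 0 that stayed 0. The reported count was 0 in male brain, female brain, both sexes together, cerebellum and the genotype by sex test. No fitted difference of a named gene reversed. In the tissue comparison, 28 to 35 genes were called under every alternative run, with the low end at an average count of at least 50, where fewer genes were tested. In cerebellum, 0 genes were called, against 5 by the adjusted p alone with no fold limits, 1 (Cacna2d4) with no filter on low counts and 0 to 1 with each sample left out. The 5 genes past the adjusted p alone, a count whose alternatives were added after seeing the data, became 1 to 5 with each sample left out. In female E13.5 brain, leaving out each sample gave 0 to 1. For the difference of the genotype effect between cerebellum and male brain, the reported 1 became 2 by DESeq2's Wald test, 2 with no filter on low counts and 0 to 1 with each sample left out. The cause of these changes was not tested. With the replicate number as a block, that count was 0 (Cacna1i at 0.47, adjusted p = 0.17) and the cerebellum count by adjusted p alone was 4. The block moved no other count by over 1.5 times. Same-numbered samples shared only a number. Of 76 shares of a family's level, 45 moved by more than 1 SD with the longest transcript as gene length. Genes at a few counts per sample, such as Scn4a and Cacng6, were limited by depth.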
